A study of Mus musculus with 6 samples.

Results

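The transcripts of the proteasome, the large protease that degrades ubiquitin-tagged proteins, were followed in mouse ovarian surface epithelial cells, in controls and in cells labelled as knockout of Lats1 and Lats2. Members were the protein-coding genes whose symbol begins with Psma, Psmb, Psmc, Psmd, Psme, Psmf or Psmg and a digit, with the interferon-inducible Psmb8 and Psmb9 left out. The rule matched 48 of the 48440 genes in the count table, and it used no measured value. All cells had been transduced with an adenovirus and were collected 7 days later. The control cells received a virus that carries GFP (Ad-GFP, genotype WT in the labels, 3 libraries). The other cells received a virus that carries Cre recombinase and GFP (Ad-Cre-GFP, labelled as Lats1/2 knockout, 3 libraries). The sources used here do not give the alleles that Cre recombines, the strain and age of the mice or the share of cells transduced. Gene deletion, Cre itself and differences between culture dishes cannot be told apart with these groups.

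The proteasome has a barrel-shaped core particle, the 20S, built of stacked rings of alpha and beta subunits, whose proteolytic sites lie on beta subunits inside the barrel. A cap, the 19S regulatory particle, recognises ubiquitin chains, removes them, and unfolds and threads the substrate into the barrel with a ring of ATPases. Other caps replace or accompany the 19S, and dedicated chaperones assemble both particles. In many cells the subunit genes are transcribed together under NRF1 (encoded by Nfe2l1), a transcription factor that is itself degraded by the proteasome until the protease is overloaded, and interferon signalling replaces the proteolytic beta subunits by inducible ones. The Hippo kinases LATS1 and LATS2 phosphorylate the coactivators YAP and TAZ and so keep them out of the nucleus.

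The 6 libraries held 18690235 to 30304033 counts, and each Ad-Cre-GFP library was deeper than each Ad-GFP library. Lats1 fell from 159 ± 8.74 to 37.0 ± 1.36 CPM (each library scaled to 1e+06 counts, with TMM factors; mean ± SD, n = 3) and Lats2 from 129 ± 2.17 to 98.6 ± 1.97 CPM, with no overlap between the groups. The fold for Lats2 was 0.762, so most of its transcript was still counted and its level alone does not show the loss that the label names. On component 2 of a principal component analysis (3.4% of the variance) Ad-GFP replicate 3, also the shallowest library, lay at -20.39, away from the other controls at 9.57 and 12.18. All 13 surface epithelium and mesothelium markers were tested, and their summed level was 4338 to 4378 CPM in Ad-GFP and 4626 to 4673 CPM in Ad-Cre-GFP libraries. That sum covers changes both ways, with 6 markers called higher, among them Cdh2 (1.93), Krt7 (1.39) and Msln (1.10), and 6 called lower, among them Krt19 (-1.60), Gata4 (-1.37) and Wt1 (-1.15). Of 9 immune markers, which together made 11.1 to 13.4 CPM and 6.99 to 7.40 CPM, Cd14 fell, Cd68 was not called, and the defining genes Ptprc, Adgre1, Lyz2, Cd3e, Cd79a, Csf1r and Itgam were at or near 0. Summed levels of other lists moved between the groups too. Endothelial markers (3 of 6 called, all higher) made 8.24 to 9.81 and 22.0 to 23.3 CPM, with Pecam1, Cdh5 and Tie1 at or near 0. Stromal fibroblast markers (4 of 5 called, all lower) made 109 to 117 and 24.0 to 28.0 CPM, with Lum at 0. Pericyte and smooth muscle markers (2 of 6 called, both higher) made 7.90 to 8.33 and 23.5 to 26.7 CPM, mostly Mcam, with Pdgfrb at or near 0. Granulosa markers (3 of 6 called higher and 1 lower) made 134 to 146 and 324 to 337 CPM, mostly Inhbb, with rises of Amh (1.17) and Foxl2 (2.24), a fall of Inha (-1.52), and Fshr and Cyp19a1 at 0. Theca markers (2 of 4 called, both lower) made 130 to 131 and 95.6 to 97.6 CPM, mostly Nr5a1 (-0.22). Star was at -2.11, and Cyp17a1 and Cyp11a1 were at or near 0. Oviduct markers (1 of 4 called, lower) made 3.40 to 4.51 and 2.67 to 2.97 CPM, with Epcam at -3.60 and Pax8 and Foxj1 at or near 0. Their part in the results on proteasome genes was not tested. In bulk RNA, fewer cells of a type and less RNA per cell cannot be told apart.

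The transcripts of the proteasome changed little in total and in small steps in both directions. Summed over the 48 members, the level was 4761, 4829 and 4601 CPM in the Ad-GFP libraries and 4747, 4728 and 4766 CPM in the Ad-Cre-GFP libraries, so the groups overlapped. Of the 46 members with enough counts to test, 15 rose, 11 fell and 20 were not called by edgeR's quasi-likelihood test at a Benjamini-Hochberg adjusted p under 0.05 over all 14811 genes tested. The members called were 56.5% of those tested, where 69.8% of all genes were called. The share called higher (32.6%) lay near the background of 34.0%, and the share called lower (23.9%) lay below the background of 35.8%. Calls were more frequent among well-expressed genes. At or above the mean level of the lowest tested member, 39.1% of genes were called higher and 38.9% lower. At or above the members' median level these shares were 46.4% and 38%, so both shares of the members lay below those of genes at like levels. With upper-quartile scaling 10 members rose and 11 fell. The median log2 fold change of the members (Ad-Cre-GFP over Ad-GFP) was 0.02, beside -0.01 over all genes. Groups did not overlap for 25 of the 46, beside 73.0% of all genes. In 13 of these the Ad-Cre-GFP libraries were higher (35.4% of all genes) and in 12 lower (37.6% of all genes).

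The members' changes were mostly small. A log2 fold change under 0.5 in size was found for 97.8% of the tested members, against 63.9% of all genes. Among the 10177 genes at or above the mean level of the lowest tested member the share was 70.5%, and among the 2199 genes at or above the members' median level it was 71.0%. Small changes were not particular to the proteasome. The share was 97.2% for complex I subunit genes, 90.9% for mitochondrial ribosomal protein genes and 57.1% for chaperonin genes. A call together with a log2 change of at least 0.5 was made for 1 member, beside 34.0% of all genes. The interquartile range of the log2 changes was 0.18 for the members and 0.69 for all genes. For the 20 members not called, the 95% intervals of the log2 change ran from -0.44 (Psma5) to 0.24 (Psmb5) at the extremes, and 15 of the 20 intervals lay within 0.2 of 0. The biological coefficient of variation common to all genes was 3.06%, and changes of a few percent passed the test.

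The 26 calls were of unequal stability. Under 17 alternatives in scaling, filtering, test, depth, copies and libraries, 18 of the 26 were made each time, 9 higher and 9 lower. The 9 that rose each time were Psmb7, Psmb10, Psme3, Psmf1, Psmd9, Psmg1, Psmg2, Psmg3 and Psmc3ip, with log2 changes of 0.23 or more. The 9 that fell each time were Psma1, Psma3, Psma7, Psmb1, Psmb4, Psmd11, Psmd5, Psme1 and Psme2b, by 0.15 to 0.22. The other 8 (Psma6, Psmc1, Psmc3, Psmc4, Psmc6, Psmd3, Psmc2 and Psmd1) had changes of at most 0.11 in size and lost their call under at least 1 alternative. Of the 46 members, 32 had their lowest control value in Ad-GFP replicate 3, where 35.2% of all genes had theirs. Without it 10 members rose and 12 fell, and without Ad-GFP replicate 1 or Ad-Cre-GFP replicate 1 there were 11 rises.

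**Figure D1:**
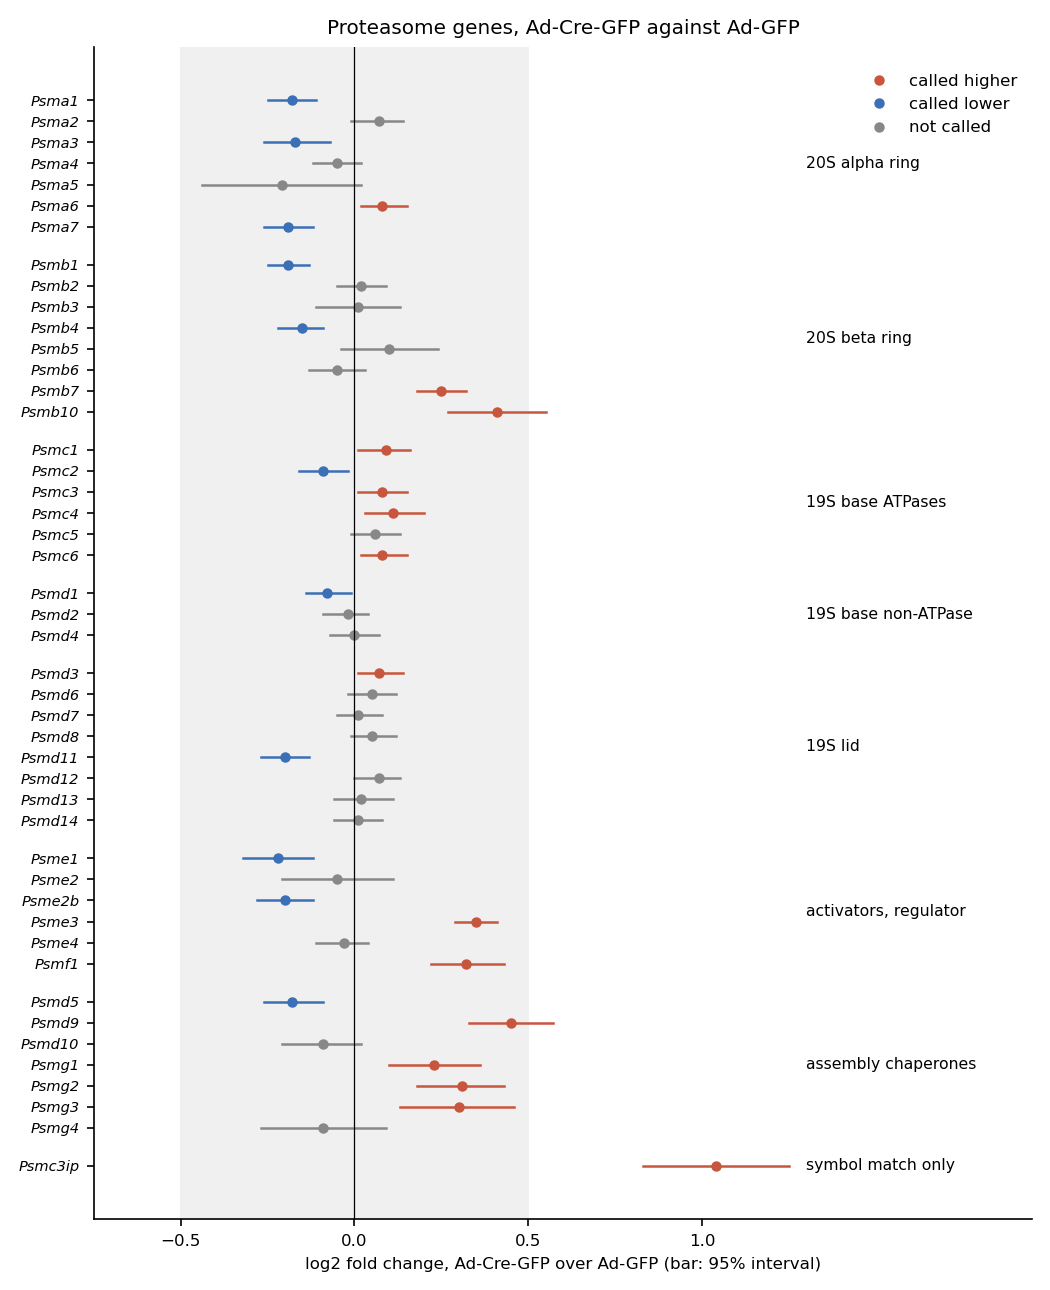
Log2 fold change (x axis, Ad-Cre-GFP over Ad-GFP) of the 46 tested members, ordered by role, with bars for the 95% interval and colour for the call. The grey band marks changes under 0.5 in size, and Psmc3ip at 1.04 is the one member whose value lies outside it.

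In the core particle, 3 of 15 tested subunit genes rose (20%, beside 34.0% of all genes) and 5 fell (33.3%, beside 35.8%). Their median was -0.05, and their summed level went from 1426 ± 31.0 to 1378 ± 7.33 CPM (n = 3). Of the 3 constitutive proteolytic subunits 1 was called. Psmb7 (chromosome 2, 38588036 to 38644087, GRCm38), the trypsin-like subunit, had 101, 101 and 94.9 CPM in Ad-GFP and 117, 120 and 116 CPM in Ad-Cre-GFP libraries. All 3 Ad-Cre-GFP libraries lay above all controls, and Psmb7 rose by 0.25 ± 0.03 (SE, adjusted p = 1.14e-06). Exons of Psmb7 share 405 bases with those of Nek6 on the opposite strand, a kinase gene that rose by the same 0.25 ± 0.03, and the labels do not say how the counting treated strand.

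Psmb5, the chymotrypsin-like subunit and the target of proteasome inhibitors such as bortezomib, had 34.7, 29.6 and 29.9 CPM in control and 35, 30.9 and 35.4 CPM in Ad-Cre-GFP libraries. The groups overlapped and the change of 0.10 ± 0.07 was not called (adjusted p = 0.177). Psmb6, the caspase-like subunit, had 89.6, 95.6 and 87.9 CPM and then 89.3, 84.0 and 90.6 CPM, which also overlapped (-0.05 ± 0.04, adjusted p = 0.240).

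The largest change of any core subunit was that of Psmb10 (chromosome 8, 105935735 to 105938444), the inducible counterpart of Psmb7 that takes its place in the immunoproteasome. Its libraries held 12.6, 13.7 and 12.3 CPM in Ad-GFP and 17.7, 16.6 and 17.3 CPM in Ad-Cre-GFP cells, without overlap. Psmb10 rose by 0.41 ± 0.07 (adjusted p = 1.1e-05), and the ratio of its CPM to that of Psmb7 went from 0.130 ± 0.00512 to 0.146 ± 0.00654, a ratio not scaled to length and given only for its change between the groups. The other inducible subunits stood near the detection limit. Psmb8 rose from 0.474 ± 0.0732 to 1.14 ± 0.233 CPM (1.27 ± 0.29, adjusted p = 0.000464), on 10 to 11 counts per control library, while Psmb9 had 0.904 ± 0.153 and 0.806 ± 0.213 CPM (adjusted p = 0.612). Of the immune markers, Cd14 fell from 9.45 ± 0.943 to 4.01 ± 0.176 CPM, Cd68 had 2.80 ± 0.279 and 2.76 ± 0.365 CPM, and the other 7 were at or near 0 in both groups. Their part in the levels of these inducible genes was not tested.

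The beta subunits without a proteolytic site fell or were not called. Psmb1 had 154, 156 and 158 CPM in control and 136, 139 and 135 CPM in Ad-Cre-GFP libraries, a fall of 0.19 on the log2 scale (-0.19 ± 0.03, adjusted p = 9.53e-06), with a gap between the groups. Psmb4 fell too (-0.15 ± 0.03, adjusted p = 0.000131). Psmb2 (0.02) and Psmb3 (0.01) overlapped between the groups. Outside this set, Psmb11, the thymus-specific beta subunit, had 1 count in each of 2 libraries and 0 in the other libraries, and was not tested.

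The alpha ring, which gates the barrel, had 3 falls and 1 rise among 7 tested genes, with a median of -0.17. Those calls were 42.9% and 14.3% of its tested genes, beside 35.8% and 34.0% of all genes. Psma7 (chromosome 2, 180036374 to 180042433) had the largest called fall, from 165, 170 and 159 CPM to 139, 146 and 147 CPM (-0.19 ± 0.03, adjusted p = 3.03e-05). Psma1 (-0.18 ± 0.03) and Psma3 (-0.17 ± 0.05) fell by similar steps. The groups did not overlap for any of these 3.

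Psma6 was the only alpha subunit gene that rose (0.08 ± 0.03, adjusted p = 0.0253), from 123, 122 and 117 CPM to 131, 126 and 128 CPM. That call was lost with upper-quartile scaling, without Ad-GFP replicate 3 and without Ad-Cre-GFP replicate 1, and with trends of GC content and length removed the value was -0.011. Psma2 (0.07 ± 0.04), Psma4 (-0.05 ± 0.03) and Psma5 (-0.21 ± 0.10, adjusted p = 0.089) were not called. Psma8, the testis form of the ring, had 0 counts in all 6 libraries, which allows up to 0.0990 to 0.161 CPM per library (3 counts).

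**Figure D2:**
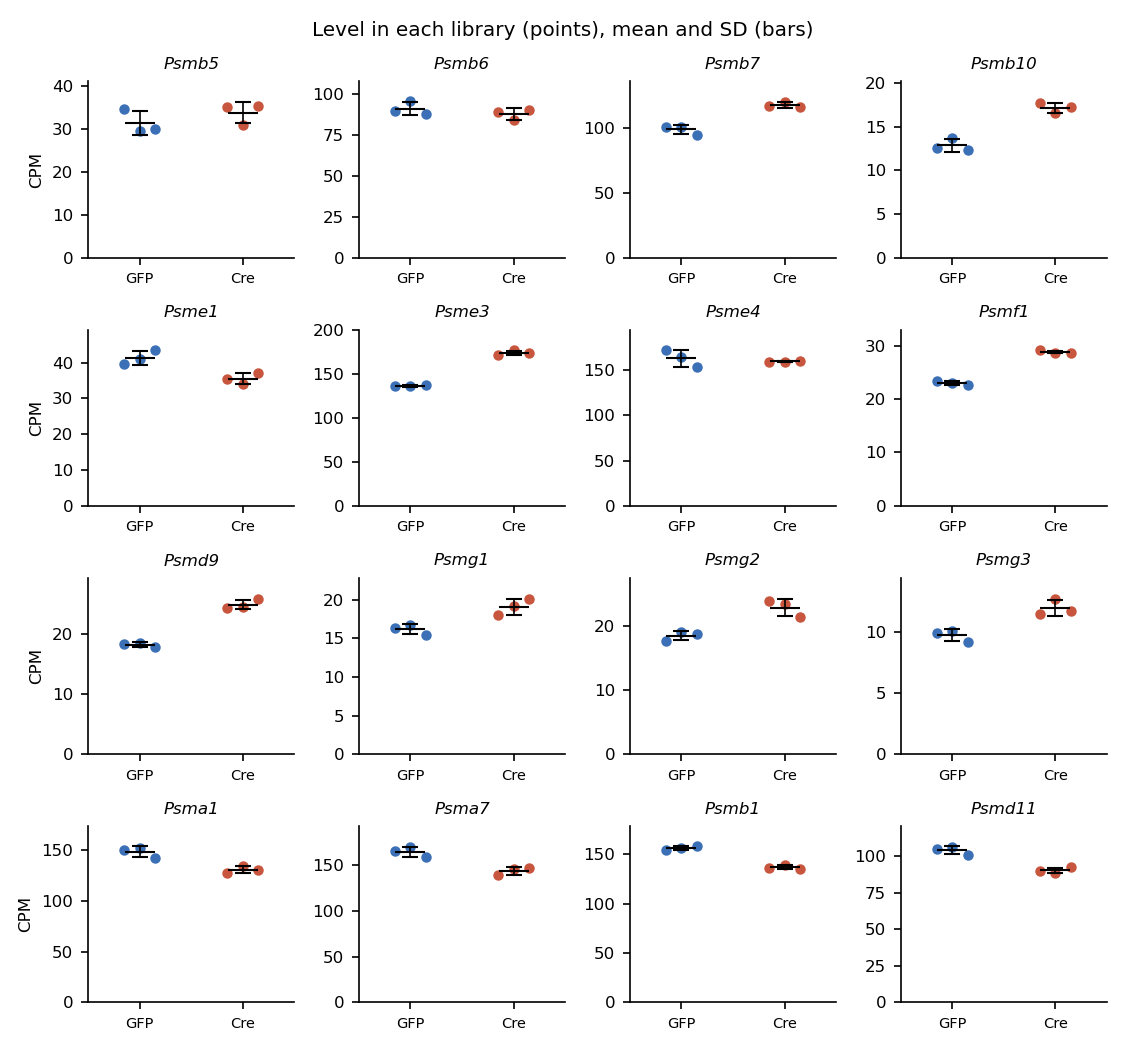
CPM (y axis, from 0) of 16 members in each of the 3 Ad-GFP (blue) and 3 Ad-Cre-GFP (red) libraries, with mean and SD as black bars. Psmb5, Psmb6 and Psme4 overlap between the groups, and the other 13 genes do not.

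Several core genes have near-identical annotated copies elsewhere in the genome, mostly processed pseudogenes, and the counts of such pairs are uncertain because the handling of reads that match more than 1 place is not given. A copy of at least 200 bases at 90% identity was found for 14 of the 46 tested members. For Psma3, the pseudogene Gm13835 on chromosome 6 matches 685 of 685 aligned bases and holds 20459 counts, beside 5632 at Psma3 itself. Copies held 379% of the member's own counts for Psma3 and 466% for Psma5. The shares were smaller for Psmb3 (53.4%), Psma4 (51.3%), Psmb5 (46.2%), Psmd2 (15.5%) and Psmc1 (9.77%).

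Adding the copies' counts to the member gave 3 further falls and took away no call, for 15 rises and 14 falls. Psme2 and Psme2b are copies of each other, so these falls count their common pool of reads under both names. The sum for Psma5 went from 127 ± 1.10 to 106 ± 3.20 CPM (-0.27 ± 0.03, adjusted p = 1.89e-07), while Psma5 alone was not called. Psma4 with its copy fell by 0.08 (adjusted p = 0.0288). Psma3 with its copies fell by 0.10 (adjusted p = 0.00546), less than alone. With copies summed, the alpha ring had 5 falls and 1 rise among 7. Of the 14 members with a copy 1 rose, 5 fell and 8 were not called, and of the 32 without one 14 rose, 6 fell and 12 were not called. Over all genes 34.0% rose and 35.8% fell.

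**Figure D3:**
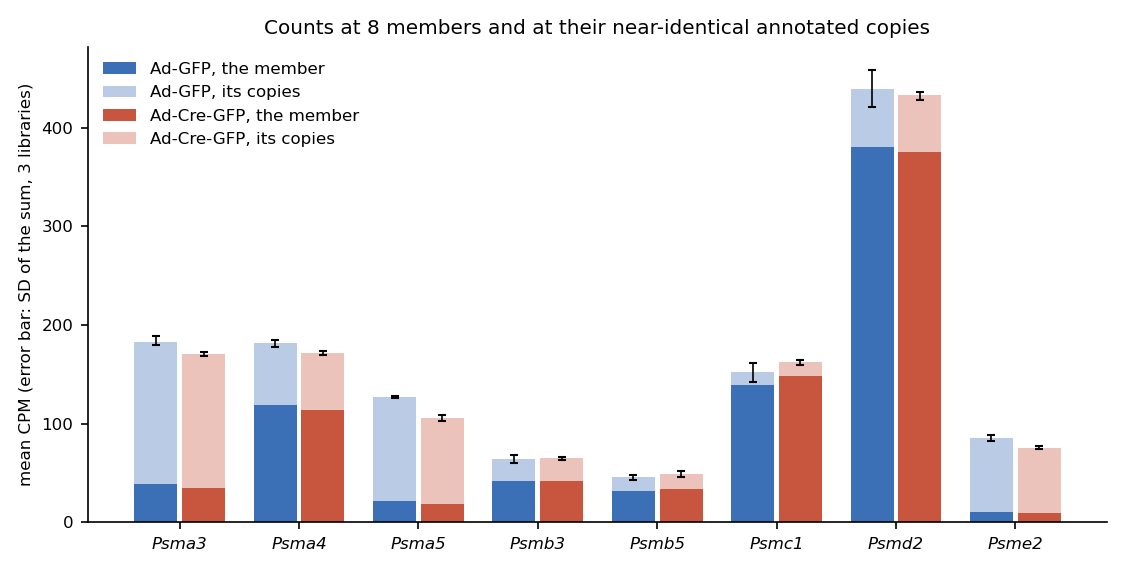
Mean CPM (y axis, from 0) at 8 members (solid) and at their near-identical copies (pale, stacked on top) in Ad-GFP and Ad-Cre-GFP libraries; error bars are the SD of the sum over 3 libraries. For Psma3, Psma5 and Psme2 most of the counts are assigned to the copies.

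The changes in the 19S cap were small. Of its 17 genes 5 rose (29.4%) and 3 fell (17.6%), beside 34.0% and 35.8% of all genes. The interquartile range of the log2 changes was 0.07, and the summed level was 2692 ± 78.9 and 2720 ± 14 CPM. Among the 6 ATPases, the ring that unfolds substrates, Psmc1 (0.09), Psmc3 (0.08), Psmc4 (0.11) and Psmc6 (0.08) rose, Psmc2 fell (-0.09) and Psmc5 (0.06) was not called. The largest rise, that of Psmc4, was from 113, 121 and 108 CPM to 129, 121 and 121 CPM (0.11 ± 0.04, adjusted p = 0.0178), and its groups overlapped. Psmc2 went from 175, 171 and 163 CPM to 161, 156 and 161 CPM (-0.09 ± 0.03, adjusted p = 0.0159). These calls depended on single libraries. Without Ad-GFP replicate 1 no ATPase gene was called, without Ad-GFP replicate 3 or with upper-quartile scaling 1 rose, and without Ad-Cre-GFP replicate 1 or 3 there were 2 rises. The call of Psmc2 was also lost with DESeq2's Wald test, without a filter on low counts, after thinning and with GC and length trends removed. Exons of Psmc3 overlap those of Slc39a13 on the opposite strand over 215 bases, and Slc39a13 rose by 0.40.

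The large scaffold subunits of the base are the docking platform for ubiquitin receptors and shuttle factors. Psmd1 fell from 245, 251 and 245 CPM to 233, 240 and 230 CPM (-0.08 ± 0.03, adjusted p = 0.0270), a call that was lost without Ad-GFP replicate 2 and without Ad-Cre-GFP replicate 1 or 3. It was also lost with DESeq2's size factors, with DESeq2's Wald test, without a filter on low counts and after thinning to equal depth. Psmd2, at 380 ± 16.4 and 375 ± 3.92 CPM, and the ubiquitin receptor Psmd4, at 126 ± 4.91 and 126 ± 1.71 CPM, overlapped between the groups.

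In the lid, where 25% of genes were called beside 69.8% of all genes, 6 of 8 were not called. They include Psmd14, the metalloprotease that cuts ubiquitin chains off the substrate, which had 110 ± 2.25 CPM in control and 111 ± 2.79 CPM in Ad-Cre-GFP libraries (0.01 ± 0.03, adjusted p = 0.792; 95% interval -0.06 to 0.08), and its structural partner Psmd7 (0.01). Psmd6 (0.05), Psmd8 (0.05), Psmd12 (0.07) and Psmd13 (0.02) were the others, and exons of Psmd13 share 342 bases with those of Sirt3 on the opposite strand. Psmd11, which bridges the lid and the core particle, was the one lid gene that fell, from 105, 106 and 101 CPM to 90, 88.8 and 92.3 CPM (-0.20 ± 0.03, adjusted p = 1.65e-05). No Ad-Cre-GFP library reached the lowest control. Psmd3 had 194, 207 and 194 CPM in control and 212, 210 and 205 CPM in Ad-Cre-GFP libraries, a rise that only just passed the threshold (0.07 ± 0.03, adjusted p = 0.0480) and was lost without Ad-GFP replicate 1, Ad-GFP replicate 3 or either of Ad-Cre-GFP replicates 1 and 2. Upper-quartile scaling, limma-voom and the test without robust dispersion did not call Psmd3 either.

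The alternative caps and the regulator PI31 went both ways, with 2 rises and 2 falls among 6 genes (33.3% each, beside 34.0% and 35.8% of all genes). Psme3 (chromosome 11, 101316213 to 101323537) encodes PA28 gamma, a nuclear cap that drives ubiquitin-independent degradation of proteins such as the cell cycle inhibitor p21. It had 136, 136 and 138 CPM in control and 172, 177 and 174 CPM in Ad-Cre-GFP libraries. The groups were far apart relative to their spread, and Psme3 rose by 0.35 ± 0.03 (adjusted p = 7.79e-10). Psme1 (chromosome 14, 55578123 to 55581529), the alpha subunit of the interferon-inducible cytoplasmic cap PA28 alpha/beta, went the other way, from 39.5, 40.9 and 43.4 CPM to 35.3, 34.0 and 37.0 CPM (-0.22 ± 0.05, adjusted p = 0.000458). The ratio of Psme3 to Psme1 in CPM, likewise not scaled to length, went from 3.31 ± 0.137 to 4.92 ± 0.248. Exons of Psme1 share 14 bases with those of Emc9 on the opposite strand, and Emc9 fell by 0.54 on the log2 scale at 3.03 to 4.37 CPM.

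Psme4, the cap PA200 of the nucleus, had 172, 164 and 153 CPM in control and 159, 159 and 160 CPM in Ad-Cre-GFP libraries, with overlap (-0.03 ± 0.04, adjusted p = 0.417). Psmf1 encodes PI31, a proteasome-binding regulator first described as an inhibitor. It rose from 23.4, 23.0 and 22.6 CPM to 29.1, 28.7 and 28.6 CPM (0.32 ± 0.05, adjusted p = 7.03e-06), without overlap.

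Psme2 encodes the beta subunit that pairs with Psme1, and its count cannot be read alone. Psme2b, an annotated coding gene on chromosome 11 (48945354 to 48946190), carries an open reading frame of 720 bases that differs from that of Psme2 at 5 positions (99.3% identity), with an identical run of 311 bases. The stretch from base 484 to 543 of the frame is shown because it holds 3 of the 5 differences, in capitals (GENCODE transcripts, 5′ to 3′).
Psme2: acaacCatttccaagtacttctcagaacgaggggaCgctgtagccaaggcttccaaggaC
Psme2b: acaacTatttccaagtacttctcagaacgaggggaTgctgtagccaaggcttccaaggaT
Of the counts of the pair, 87.3% were assigned to Psme2b. Psme2b fell from 77.9, 73.3 and 74.4 CPM to 64.7, 64.8 and 67.2 CPM (-0.20 ± 0.04, adjusted p = 7.13e-05). Exons of Psme2b share 41 bases with those of 9930111J21Rik1 on the same strand, a gene that rose by 0.21 ± 0.05. Psme2 had 10.7, 10.3 and 9.75 CPM and then 9.98, 9.66 and 10.2 CPM, with overlap (-0.05 ± 0.08, adjusted p = 0.588). With the copies summed, the value for Psme2 was -0.18 ± 0.04 (adjusted p = 0.00015), close to that of its partner Psme1; the difference between the genes was not tested.

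Assembly chaperones had 4 rises (57.1%, beside 34.0% of all genes) and 1 fall (14.3%, beside 35.8%) among 7 genes. Their median was 0.23, beside a median of 0.02 over all members. Psmd9 had the largest rise of any chaperone or subunit gene, from 18.2, 18.5 and 17.7 CPM to 24.2, 24.5 and 25.7 CPM (0.45 ± 0.06, adjusted p = 2.73e-07). Psmd9, Psmd5 and Psmd10 are chaperones that hold ATPase pairs before the base of the cap closes. Psmd5 fell from 59.8, 60.2 and 59.8 CPM to 51.6, 55.3 and 52.2 CPM (-0.18 ± 0.04, adjusted p = 0.000489). Psmd10, also known as gankyrin, had 25.5, 28.7 and 26.0 CPM and then 24.7, 24.7 and 26.0 CPM, with overlap (-0.09 ± 0.06, adjusted p = 0.145). These 3 base chaperones did not move together.

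Psmg1 to Psmg4 encode the chaperones that guide alpha ring assembly, working as the pairs Psmg1 with Psmg2 and Psmg3 with Psmg4. Psmg1 rose from 16.4, 16.7 and 15.5 CPM to 18, 19.2 and 20.1 CPM (0.23 ± 0.06, adjusted p = 0.0025), and Psmg2 from 17.7, 19 and 18.7 CPM to 23.8, 23.4 and 21.3 CPM (0.31 ± 0.06, adjusted p = 0.000123). Both members of this pair were higher in all 3 Ad-Cre-GFP libraries than in any control. In the other pair, Psmg3 rose from 9.93, 10.1 and 9.16 CPM to 11.5, 12.7 and 11.7 CPM (0.30 ± 0.08, adjusted p = 0.00197). Psmg4 had 9.84, 9.34 and 9.06 CPM and then 8.68, 9.60 and 8.28 CPM, which overlapped (-0.09 ± 0.09, adjusted p = 0.367; 95% interval -0.27 to 0.09). The 7 chaperone genes had 9.41 to 59.9 CPM in control. The 4 rises were made under all 17 alternatives.

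Psmc3ip matches the rule by its symbol alone: its product was named for binding an ATPase subunit and acts in meiotic recombination. It was the one member past a log2 change of 0.5, from 5.33, 4.26 and 4.56 CPM to 9.26, 9.96 and 9.81 CPM (1.04 ± 0.10, adjusted p = 5.51e-09), with no overlap. Its exons share 385 bases with those of Mlx on the opposite strand, and Mlx rose by 0.13. Without Psmc3ip, 14 of 45 tested members rose and 11 fell.

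To compare levels between the subunits of a ring or of the lid, CPM was divided by a length in kilobases. It was the length of the principal transcript where the annotation tags it, and that of the gene's merged exons otherwise. The 6 ATPase genes, whose products are present in 1 copy each per ring, spanned 1.64-fold in control cells, from Psmc6 (58.0 CPM per kb) to Psmc2 (95 CPM per kb). The lid spanned 2.66-fold, from Psmd13 to Psmd7, and the 7 constitutive beta subunit genes spanned 4.14-fold, from Psmb5 (35 CPM per kb) to Psmb4 (145 CPM per kb). The alpha ring spanned 13.0-fold, from Psma3 (13.8 CPM per kb) to Psma7 (180 CPM per kb). The lengths used were 2846 bases for Psma3 and 914 bases for Psma7, with 39.2 and 165 CPM before the division. Copies of Psma3 and Psmb5 held 379% and 46.2% of the members' own counts. The parts of length and of copies in these spans were not tested. In Ad-Cre-GFP cells the spans were 1.54-fold, 2.65-fold, 3.47-fold and 12.8-fold.

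Promoter sequence from 250 bases before to 50 bases after the transcription start was read for 40 of the 48 members from RefSeq (GRCm38.p6), on both strands. Shares of the members count genes (43 windows for the 40 genes), while shares of all promoters count windows, so the units differ. The core of the antioxidant response element, TGACNNNGC, which NRF1 and NRF2 bind with a MAF partner, was found in 6 of the 40 (15%), beside 12.4% of 32851 promoters. The 6 genes are Psmb5, Psmb6, Psmc6, Psmd12, Psmd9 and Psme4, of which 2 rose, 0 fell and 4 were not called. Of the 33 tested members whose promoter held no match, 9 rose, 10 fell and 14 were not called. Over all genes 34.0% rose and 35.8% fell. The rises were those of Psmd9 and of Psmc6, whose call was lost under at least 1 alternative. A link between motif and call was not tested. The matches in the genes with a proteolytic or ATPase subunit and in Psmd9 are shown on the gene's strand with the motif in capitals, since NRF1 and NRF2 transcripts themselves changed.
Psmb5, minus strand, chr14:54618014-54618062: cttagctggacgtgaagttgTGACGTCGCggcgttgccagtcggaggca
Psmb6, plus strand, chr11:70525328-70525356: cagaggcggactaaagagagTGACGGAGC
Psmc6, plus strand, chr14:45329577-45329625: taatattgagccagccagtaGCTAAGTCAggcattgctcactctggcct
Psmd9, plus strand, chr5:123228139-123228187: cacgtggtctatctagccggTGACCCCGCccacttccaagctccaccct
The Psmd9 window lies inside the span that GENCODE gives the gene (123169413 to 123250131), since its annotation begins upstream of the RefSeq start. In Psmc6 the match lies on the other strand, so that the capitals read as its complement. The motifs begin 47, 9, 227 and 31 bases before the start.

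The other motifs searched were close to or below the share of all promoters, but for 1. CCAAT, the box bound by NF-Y, was in 14 of the 40 (35%, beside 37.4%), and GGAATG, the site of the TEAD partners of YAP, in 4 (10%, beside 14.7%). The interferon element, searched as GAAA repeated after any 2 bases, was in 5 (12.5%, beside 3.44%), in Psmb3, Psmd4, Psmd9, Psme1 and Psmg4. Of these 5, Psmd9 rose, Psme1 fell and 3 were not called, while of the 34 tested members without a match 10 rose, 9 fell and 15 were not called. In Psme1 and Psmg4 the match lies after the transcription start. Psmd9 holds the antioxidant, the TEAD and the interferon motif, and the next window shows that the interferon match (capitals) is directly followed by the TEAD letters ggaatg.
Psmd9, plus strand, chr5:123228011-123228060: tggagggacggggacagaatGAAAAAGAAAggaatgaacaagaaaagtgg
A match is a description of letters and not a measured binding site, and no match says only that the letters are not in this window.

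Genes that control or assist the proteasome were spread more widely than its members and about as widely as genes in general. Over 8 such lists together, 37 of 84 tested genes rose and 34 fell, and 72.6% had a change under 0.5 in size, against 97.8% of the members. Over all genes 34.0% rose, 35.8% fell and 63.9% had a change under 0.5, and that last share was 70.5% to 71.0% among genes at or above the level of the lowest or the median member. The interquartile range was 0.60 for these lists and 0.69 for all genes. Genes around the transcription factors NRF1 and NRF2 fell in 9 of 11 cases and rose in 2, with a median of -0.49, beside 35.8% of all genes called lower. Nfe2l2, which encodes NRF2, fell from 203, 198 and 204 CPM to 96.2, 93.4 and 96.6 CPM (-1.08 ± 0.03, adjusted p = 6.18e-18) and a fold of 0.473 without overlap between the groups. Nfe2l1, which encodes NRF1, fell from 350 ± 9.22 to 310 ± 7.45 CPM (-0.18 ± 0.03, adjusted p = 3.07e-05). Syvn1, the ubiquitin ligase that keeps NRF1 low at the endoplasmic reticulum, fell by 0.87 on the log2 scale. Ngly1 (-0.65 ± 0.06) and Ddi2 (-0.37 ± 0.04), which deglycosylate and cut NRF1 into its active form, fell, as did the NRF2 inhibitor Keap1 (-0.57 ± 0.04). The small MAF partners Maff (0.94 ± 0.05) and Mafk (0.77 ± 0.04) rose and Mafg (-0.17 ± 0.04) fell.

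Among 12 proteasome-associated genes, 6 rose (50%) and 4 fell (33.3%), beside 34.0% and 35.8% of all genes. The deubiquitinases that bind the cap both rose. Uchl5 went from 40.8, 42.5 and 39.7 CPM to 65.8, 66.0 and 72.4 CPM (0.73 ± 0.05, adjusted p = 4.27e-12), and Usp14 from 119, 112 and 117 CPM to 148, 144 and 148 CPM (0.34 ± 0.03, adjusted p = 4.7e-09). Adrm1, the receptor that docks Uchl5, was not called (32.0 ± 1.09 and 31.6 ± 1.36 CPM). Pomp, the maturation factor of the core, rose (0.18 ± 0.03), and Sem1, the small lid subunit left outside the symbol rule, fell (-0.23 ± 0.04). Of the zinc finger proteins that bind the proteasome under stress, Zfand5 fell from 187 ± 4.78 to 118 ± 4.10 CPM (-0.67 ± 0.03) and Zfand2a rose (0.61 ± 0.05). The ubiquitin shuttles had 4 rises (57.1%) and 2 falls (28.6%) among 7, with rises of Rad23b (0.31 ± 0.03) and Ubqln4 (0.33 ± 0.04).

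Upstream steps went both ways. In the list of the unfolding ATPase p97 and its cofactors, 3 rose (33.3%) and 5 fell (55.6%) among 9, beside 34.0% and 35.8% of all genes. Vcp, which encodes p97, fell from 254 ± 2.13 to 186 ± 7.33 CPM (-0.45 ± 0.03, adjusted p = 4.03e-11), and its cofactors Ubxn7 (-0.35 ± 0.04) and Ubxn6 (-0.31 ± 0.05) fell as well. The ubiquitin-activating enzyme gene Uba6 rose (0.46 ± 0.04). Of 18 conjugating enzymes 6 rose (33.3%) and 8 fell (44.4%), among them Ube2h (-0.80 ± 0.04), Ube2g2 (0.56 ± 0.04) and Ube2e3 (-0.53 ± 0.04).

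Of 9 tested genes of the inducible proteasome and peptide loading, 5 rose (55.6%) and 2 fell (22.2%), beside 34.0% and 35.8% of all genes. Nlrc5, the coactivator of this gene group, rose from 0.368 ± 0.146 to 2.60 ± 0.361 CPM (2.77 ± 0.26, adjusted p = 3.66e-09). The peptide transporter genes split, Tap1 with a rise (0.76 ± 0.08) and Tap2 with a fall (-0.73 ± 0.07). Cytosolic folding genes had 9 rises (69.2%) and 3 falls (23.1%) among 13. Hsp90aa1 (0.78 ± 0.03), Hspa8 (0.55 ± 0.03) and the chaperonin subunit Tcp1 (0.54 ± 0.03) were the calls with the smallest adjusted p.

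**Figure D4:**
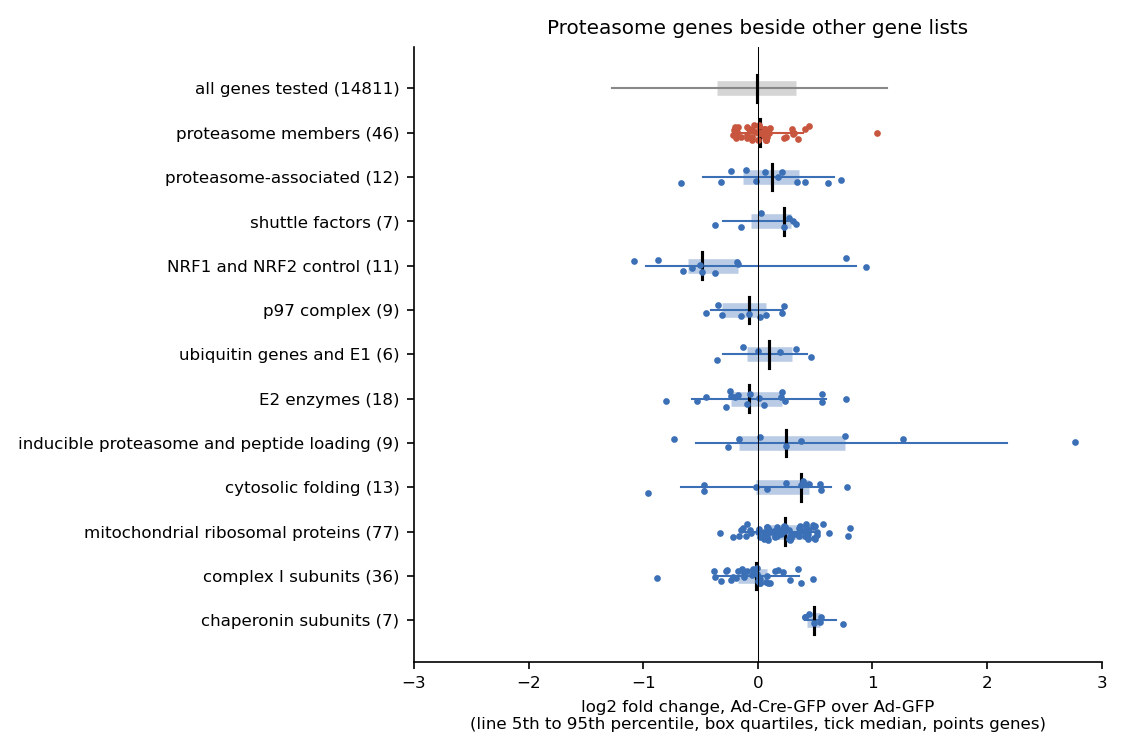
Log2 fold changes (x axis) of the 46 tested members (red), of 8 lists of the ubiquitin-proteasome pathway and of 3 other multi-subunit assemblies (blue, points are genes), with all 14811 tested genes on top; lines reach from the 5th to the 95th percentile, boxes show quartiles and ticks medians. Apart from Psmc3ip the members lie between -0.22 and 0.45.

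Other large assemblies are set beside the members under the same fit, as a description of these libraries. Of 77 tested mitochondrial ribosomal protein genes 54 rose and 4 fell (70.1% and 5.19%, median 0.24, interquartile range 0.33). Over all genes 34.0% rose and 35.8% fell. Of 36 complex I subunit genes 7 rose and 14 fell (19.4% and 38.9%, median -0.02, interquartile range 0.26). All 7 tested chaperonin genes annotated as protein-coding rose (median 0.49). All proteasome members together had an interquartile range of 0.18, narrower than in the first 2 of these sets but not than in the chaperonin (0.11). The range differed between parts of the proteasome. It was 0.07 for the cap (median 0.05) and 0.25 for the core (median -0.05), close to that of complex I. For the activators and regulator and for the assembly chaperones it was 0.39 each, wider than in all 3 sets.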

How the data were processed

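Poly(A) RNA from 6 libraries was sequenced, per the labels' protocols. The table holds raw counts, whole reads per gene in 1 column per library, which the authors made from BAM files, per the file headers. Per the submitters' processing notes, GRCm38 was the build, and kallisto 0.46.2 and sleuth 0.30.1 were used. The sources used here do not give the aligner, the counting tool, its handling of strand and of multiply matching reads, or the annotation.

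Symbols came from GENCODE mouse release 21 by gene ID without version (48058 IDs matched, and the other 382 held 0.0381% of counts). After filterByExpr and TMM scaling, 14811 genes were tested with the robust quasi-likelihood test of edgeR 4.0.16 in R 4.3.3, with Benjamini-Hochberg adjustment. A call is an adjusted p under 0.05. CPM values, and their sums over lists, are TMM-scaled. SE is the log2 change divided by the square root of F. The script was tested on simulated data. Replicate pairs differed beyond sampling noise (chi-square per gene 2.04 to 4.27). Since no label says that replicates are separate cultures, p-values describe the spread among these libraries, which may be technical. The limit that a count of 0 allows covers counting error only.

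The members, lists, motifs and the rule for genes given in full (proteolytic subunits, caps, chaperones, the largest called rise and fall of each role, and up to 3 called genes with the smallest adjusted p of each outside list) were chosen with earlier results of these data known. The 3 other assemblies were added later. Alternatives were DESeq2 1.42.0 and its size factors, upper-quartile scaling, 2 other filters, limma-voom (3.58.1), the test without robust dispersion, the replicate number as a block, and each library left out in turn. Thinning, GC and length trends and summed copies (minimap2 2.31, at least 200 bases at 90% identity) were added after seeing the data. The list of ubiquitin and ubiquitin-activating genes enters the joint counts and the plot of the lists, and its other single genes are not reported here.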

Additional observations from a re-analysis of the deposited data

How the results depend on the processing

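The direction of calls among the members held in every alternative in which a member was called, and no member was called in opposite directions by any pair of fits. Members called higher ranged from 10 to 16 and members called lower from 10 to 12 when single libraries were left out. DESeq2 gave 15 and 9, limma-voom 14 and 12, upper-quartile scaling 10 and 11, thinning 16 and 9, and removal of GC and length trends 14 and 14. Requiring a log2 change of at least 0.5 left 1 higher and 0 lower members, and 13 higher and 10 lower genes of the outside lists. The median of the members ran from -0.003 (without Ad-GFP replicate 3) to 0.038 when single libraries were left out and was -0.013 with GC and length trends removed, so its sign depended on the setting. With the replicate number as a block 15 members rose and 12 fell, with Psma5 as the added fall; same-numbered libraries deviated together by correlations of only 0.046, 0.046 and 0.005, so the numbers were not used as pairs.

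Values near 0 changed sign. With GC and length trends removed they were -0.011 for Psma6, -0.057 for Psmb2, -0.056 for Psmb3, -0.029 for Psmd6, -0.049 for Psmd7, -0.029 for Psmd14, 0.005 for Psme4 and 0.107 for Adrm1. With upper-quartile scaling Psmb3 was at -0.002, Psmd4 at -0.008 and Psmd14 at -0.002, and after thinning Psmb3 was at -0.002, Psmd4 at -0.008 and Psmb9 at 0.072. Leaving out single libraries gave -0.041 to 0.081 for Psmb3, -0.054 to 0.009 for Psmd2, -0.024 to 0.033 for Psmd4, -0.008 to 0.048 for Psmd7, -0.028 to 0.063 for Psmd13, -0.006 to 0.040 for Psmd14, -0.074 to 0.004 for Psme4, -0.048 to 0.020 for Adrm1 and -0.385 to 0.015 for Psmb9. The causes were not tested. The alternatives moved the median of all genes by at most 0.0219. Low counts limit what can be read from genes such as Psmb8, Psmb9, Psmb11, Psma8 and Nlrc5.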
